A study of Homo sapiens with 15 samples.

Results

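The genes described here encode the cytosolic ribosomal proteins. Members were protein-coding genes whose symbol is RPL or RPS followed by a number, with or without a suffix A, X, L or Y, together with RPLP0, RPLP1, RPLP2 and RPSA, and without the RPS6K kinases. The rule found 87 members among the 60557 genes that every library shared, of which 31 belong to the small subunit, 43 to the large subunit, 3 to the ribosomal stalk and 10 are paralogs whose symbols end in L or Y, with or without a digit after it. Their RNA was measured in Caco-2, a cell line from a human colorectal carcinoma whose confluent cells resemble enterocytes, in 3 groups of 5 libraries. One group was unexposed (control), another received rinse aid, the surfactant-based liquid of a dishwasher's final rinse, diluted 1:40000, and another received it at 1:10000, which is 4 times as concentrated; both exposures lasted 24 h. Polyadenylated RNA was sequenced. Whether the libraries stem from separate cultures is not said in the labels, and p-values reflect the spread among these libraries alone, which may be technical.

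The cytosolic ribosome is built from a small subunit, which reads the messenger RNA, and a large subunit, which joins amino acids, and each subunit carries one copy of most of its proteins. Messenger RNAs for these proteins typically begin with a C followed by a run of pyrimidines, the 5′ terminal oligopyrimidine (TOP) motif, through which the mTOR kinase and LARP1 control their translation and stability. Subunits are assembled in the nucleolus, and a surplus of free RPL5 and RPL11 is known to bind MDM2, the inhibitor of p53. In the intestinal epithelium, ribosome production is known for following growth and proliferation.

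The starts of the members are shown because this motif is the feature they share that the symbol rule did not use. Of the 87 members, 70 matched a RefSeq promoter entry on GRCh38.p14, and 48 of these (68.6%) had a C at the annotated start followed by at least 4 C or T on the sense strand. The same run began at the start of 1404 of 27305 genes in the table (5.14%). On the other strand it was found at the start of 1.43% of members and 2.63% of all genes. Allowing it to begin within 5 bases of the start gave 80% of members and 25.2% of all genes. In the windows below, the last 10 bases before the annotated start are followed by the first 20 bases from it, capitals mark the pyrimidine run that begins with C within 5 bases of the start, and the paralogs RPL26L1, RPS27L and RPL7L1 have no such run. RPL26L1 has 2 starts in the table, of which 1 is shown.
RPS3, chr11:75399508-75399537, plus strand: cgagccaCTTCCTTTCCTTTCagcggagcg
RPLP0, chr12:120201092-120201121, minus strand: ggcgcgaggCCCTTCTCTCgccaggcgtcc
RPS12, chr6:132814559-132814588, plus strand: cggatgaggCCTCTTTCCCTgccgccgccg
RPS13, chr11:17077648-17077677, minus strand: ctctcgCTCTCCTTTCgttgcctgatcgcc
RPL39, chrX:119791611-119791640, minus strand: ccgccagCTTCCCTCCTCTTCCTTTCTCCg
RPL22, chr1:6199576-6199605, minus strand: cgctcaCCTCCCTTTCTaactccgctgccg
RPL22L1, chr3:170870176-170870205, minus strand: ccgtagCTTCCTCTCTgctctcgcggccga
RPL26, chr17:8383174-8383203, minus strand: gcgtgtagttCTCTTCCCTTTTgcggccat
RPL26L1, chr5:172958719-172958748, plus strand: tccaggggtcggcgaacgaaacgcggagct
RPS27, chr1:153990752-153990781, plus strand: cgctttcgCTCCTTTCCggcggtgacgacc
RPS27L, chr15:63157458-63157487, minus strand: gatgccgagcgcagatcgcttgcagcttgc
RPL7L1, chr6:42879606-42879635, plus strand: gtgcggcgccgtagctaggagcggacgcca

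Library totals were 4333130 to 14230562 counts for controls, 2551252 to 172059860 for 1:40000 and 5488516 to 9554075 for 1:10000. Mitochondrially encoded transcripts took 1.41 to 1.80% of counts in controls, 1.96 to 3.30% at 1:40000 and 5.85 to 7.16% at 1:10000. Of 8 epithelial markers, 7 reached 1 CPM in every group, and KRT20 had no counts in any rinse aid library. Of the 7, CDX2 (log2 fold change −1.61), HNF4A (−1.02), CDH1 (−0.43) and VIL1 (−0.31) were lower and KRT18 (0.78) and KRT8 (0.54) higher at 1:10000 than at 1:40000, each without overlap. Of 15 markers of fibroblasts, leukocytes and endothelium, 7 reached 1 CPM in every group (COL1A1, COL3A1, LUM, PDGFRB, CD14, LYZ and PECAM1), with summed levels of 165 to 180 CPM in controls, 140 to 163 CPM at 1:40000 and 64.0 to 86.9 CPM at 1:10000. Of the 15, 5 had no counts in control, 2 at 1:40000 and 4 at 1:10000, and PTPRC and THY1 had none in any library. Such zeros depend on depth, and the 1:40000 group held the deepest library (172059860 counts). The part of either marker list in the results was not tested, and in bulk RNA fewer cells of a type and less RNA per cell cannot be told apart. Replicates 1 and 2 stood apart from replicates 3 to 5 in every group: the first principal component of the deviations from the group means (18.8% of their variance) had its highest 2 scores in replicates 1 and 2 of each group. COL3A1 showed the same division, at 8.92 to 10.8 CPM in replicates 1 and 2 and 20.9 to 39.6 CPM in replicates 3 to 5. The labels name no batch, so the counts and medians of the members are given for each set as well. Control files name RNA STAR in their headers and rinse aid files name HISAT2, so exposure and aligner cannot be told apart in comparisons with control; the comparison between the dilutions shares the aligner.

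At 1:10000, ribosomal protein transcripts were higher than at 1:40000 across both subunits and the stalk, by a small and nearly uniform amount. The median log2 fold change of the 81 members with enough counts to be tested was 0.28, a factor of 1.21, against −0.01 over all 13158 genes tested. Of the 81, 64 (79.0%) were called higher at an adjusted p under 0.05 (quasi-likelihood test of edgeR, Benjamini-Hochberg adjustment over all tested genes), where 28.3% of all genes were. Only RPL6 and RPL7L1 (2.47%) were called lower, against 29.1% of all genes, and 15 were not called. The middle part of the distribution was narrow, with quartiles of 0.20 and 0.33, or factors of 1.15 and 1.26. RPL22L1 alone was called higher by 1.5-fold or more, which 10.5% of all genes were. In 48 members every library at 1:10000 lay above every library at 1:40000, a separation that 20.4% of all genes showed, and in no member did the groups separate in the lower direction (19.9% of all genes).

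The small subunit had 26 of 30 tested members higher and none lower (median log2 fold change 0.31). The large subunit had 33 of 42 higher and 1 lower (median 0.26). All 3 stalk proteins were higher (median 0.32), while among the paralogs 2 of 6 were higher and 1 was lower (median 0.08). Among members outside the paralogs that matched the promoter table, 37 of 45 with the pyrimidine run at the annotated start were called higher (median 0.29), as were 11 of 16 without it (median 0.23), and the difference was not tested. Across 76 members of at least 10 CPM in every group, the log2 fold change correlated with log2 coding length at Spearman's rho −0.38 (Pearson's r −0.29), a description across genes that share libraries. The shortest 27 members, with coding lengths of 75 to 396 bases, had a median of 0.32, and the longest 27, of 576 to 1281 bases, had a median of 0.24. In 1:40000 replicate 1, counts of the short members were 36.3% of those of the long members, against 42.7 to 44.0% in the other 4 libraries of that group. Without this library, 62 members were called higher and the median was 0.27. Its deviation from the mean of the rest of its group correlated with log2 coding length at Spearman's rho 0.61. The other 4 libraries gave −0.50 to −0.20. Replicate 1 was part of the mean that each of these was set against, so their values are not independent of its own. The part of this library in the length trend was not tested.

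**Figure D1:**
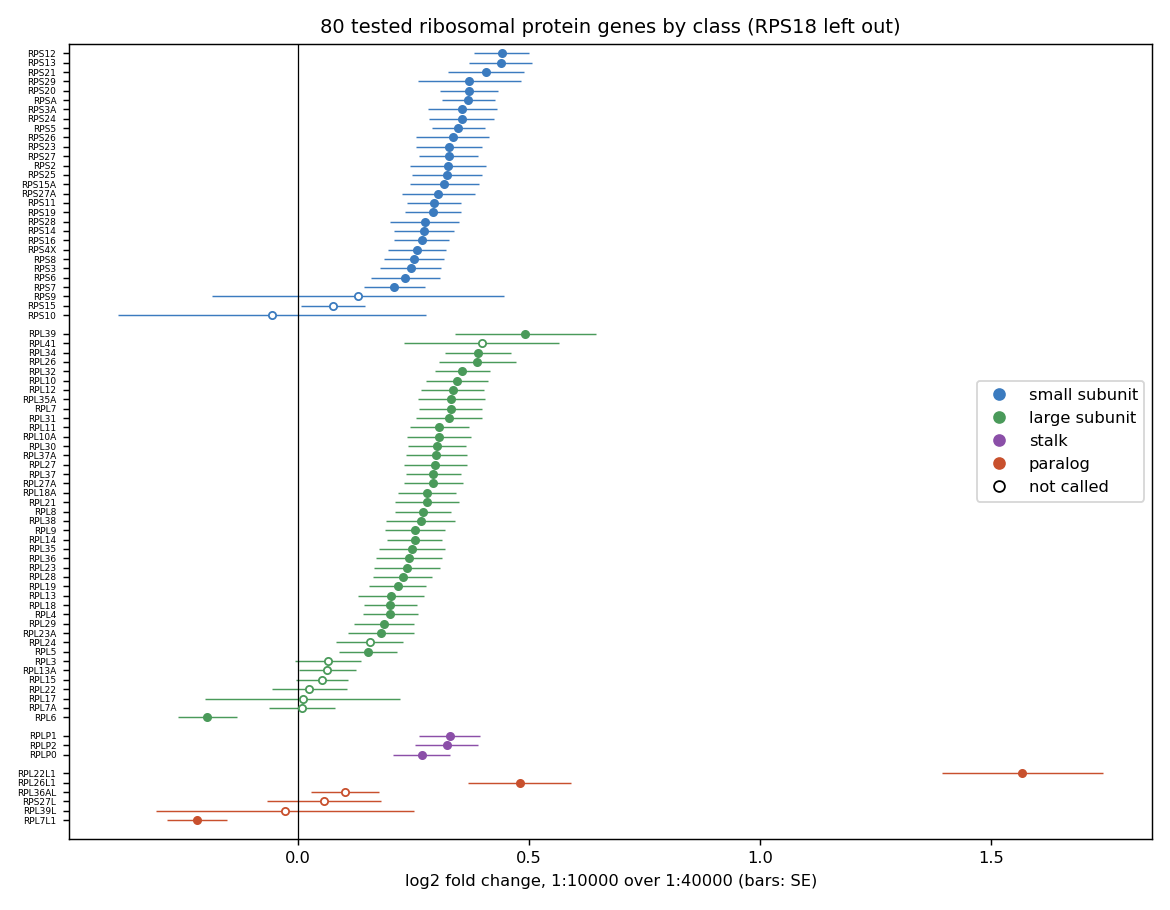
Log2 fold change of 80 tested members at 1:10000 over 1:40000 with its SE, by class (filled points were called, open points were not); RPS18, with almost no counts in either group, is left out. Most points lie between 0.1 and 0.5, RPL22L1 stands apart at 1.57, and RPL6 and RPL7L1 are the only filled points below 0.

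As a share of all counts, the 87 members together took 7.40, 7.25, 6.55, 6.59 and 6.72% in the 1:10000 libraries, against 6.15, 6.58, 6.32, 6.29 and 6.61% in the 1:40000 libraries. These ranges overlap. With mitochondrially encoded genes left out of the total, the share was 6.99 to 7.86% at 1:10000, against 6.36 to 6.79% at 1:40000, without overlap. Scaling to total counts alone, with no further normalisation, left 39 members higher and 3 lower, where 18.7% and 39.5% of all genes were. The median of the members was then 0.12, while the median of all genes moved to −0.16. A change of scaling moves all genes by about the same amount, so the distance between the medians of members and of all genes could not change. With mitochondrially encoded genes removed before scaling, 64 members were higher and 2 lower, where 28.3% and 29.1% of all genes were.

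**Figure D2:**
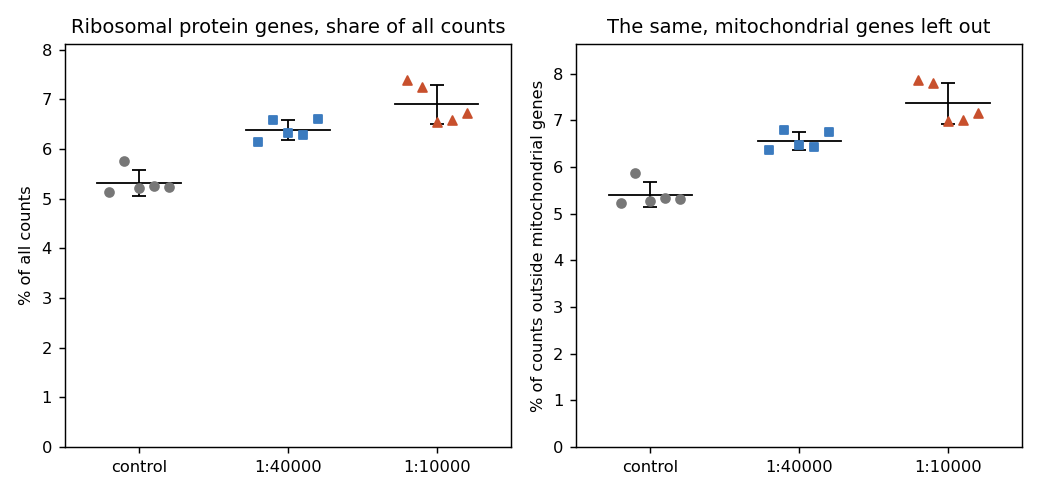
Share of the 87 members in all counts (left) and in counts outside mitochondrially encoded genes (right), in percent, for 5 libraries a group with mean and SD. Controls lie lowest; the rinse aid groups overlap on the left (6.55 to 7.40% at 1:10000, 6.15 to 6.61% at 1:40000) and not on the right.

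Both sets of replicates had most members higher at 1:10000 than at 1:40000, with medians of different size; the difference between the sets was not tested. In replicates 1 and 2 alone the median log2 fold change of 80 tested members was 0.39, with 62 higher and 0 lower, where 20.8% of all genes were higher and 22.1% lower; RPL6 (−0.10, adjusted p = 0.452, edgeR) and RPL7L1 (−0.07, adjusted p = 0.595) were then not called. In replicates 3 to 5 alone the median of 81 members was 0.20, with 62 higher and 2 lower, where 28.8% of all genes were higher and 28.4% lower. A term for the set in the model left 65 higher and 2 lower, with a median of 0.28.

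Among small subunit proteins, RPS12 and RPS13 had the largest log2 fold changes. RPS12 had 1500, 1670, 1450, 1390 and 1540 CPM (TMM-scaled counts per 1e6 counts) at 1:10000, against 1030, 1140, 1090, 1120 and 1170 CPM at 1:40000. Every 1:10000 library lay above every 1:40000 library, and the log2 fold change was 0.44 ± 0.06 (SE; adjusted p = 8.61e-07, edgeR). RPS13 had 804, 747, 653, 674 and 699 CPM at 1:10000, against 447, 591, 523, 536 and 549 CPM at 1:40000. Its groups were also separate (0.44 ± 0.07, adjusted p = 7.05e-06), and the lowest value belonged to the 1:40000 library with few counts from short members. RPSA, which is also known as the laminin receptor precursor, had 1880, 1770, 1640, 1510 and 1690 CPM at 1:10000, against 1350, 1290, 1310, 1310 and 1320 CPM at 1:40000. The 1:40000 values were nearly equal, and all lay below the 1:10000 values (0.37 ± 0.06, adjusted p = 6.76e-06).

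The small subunit members with the most counts changed in the same direction. RPS3, which lies at the entry of the messenger RNA channel and also takes part in DNA repair, averaged 3786 ± 298 CPM at 1:10000 and 3198 ± 132 CPM at 1:40000 (SD, n = 5 each), with separate groups (0.24 ± 0.07, adjusted p = 0.00272, edgeR). RPS2, a neighbour of RPS3 at that entry, averaged 2931 ± 259 CPM at 1:10000 and 2341 ± 240 CPM at 1:40000 (0.32 ± 0.08, adjusted p = 0.00173). RPS6, the ribosomal substrate of the S6 kinases, had 1240, 1060, 888, 916 and 1010 CPM at 1:10000, against 830, 956, 841, 865 and 864 CPM at 1:40000. Its groups overlap, since the lowest 1:10000 library lies under the highest 1:40000 library (0.23 ± 0.08, adjusted p = 0.0106). RPS27A, which is made fused to ubiquitin, averaged 1420 ± 219 CPM at 1:10000 and 1151 ± 65.5 CPM at 1:40000 (0.30 ± 0.08, adjusted p = 0.00222). RPS3, RPS6 and RPS27A were not called with total counts as the only scaling.

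Of the stalk, where elongation factors bind, RPLP0 had 2820, 2870, 2440, 2360 and 2550 CPM at 1:10000, against 2330, 2140, 2130, 2030 and 2200 CPM at 1:40000. All 1:10000 libraries lay above all 1:40000 libraries (0.27 ± 0.06, adjusted p = 6.73e-04, edgeR). RPLP1 and RPLP2, the acidic proteins that attach to RPLP0, had log2 fold changes of 0.33 ± 0.07 (adjusted p = 1.42e-04) and 0.32 ± 0.07 (adjusted p = 2.70e-04), also with separate groups.

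In the large subunit, RPL11 averaged 945 ± 95.1 CPM at 1:10000 and 765 ± 38.0 CPM at 1:40000 (0.31 ± 0.06, adjusted p = 2.08e-04, edgeR; n = 5 each). Its partner in the MDM2 complex, RPL5, had 991, 927, 850, 823 and 851 CPM at 1:10000, against 782, 844, 796, 795 and 788 CPM at 1:40000. This was the weakest of these calls (0.15 ± 0.06, adjusted p = 0.0429): it was lost when any one of 8 libraries was left out, and with total counts alone the value was 0.00. RPL39, a very short protein of the exit tunnel, had 604, 540, 441, 404 and 428 CPM at 1:10000, against 258, 411, 352, 359 and 350 CPM at 1:40000. The groups overlap by 1 library (0.49 ± 0.15, adjusted p = 0.0135), and the low 258 CPM belonged to 1:40000 replicate 1. The call was lost with total counts alone (0.33, adjusted p = 0.0613), without the filter on low counts (0.43, adjusted p = 0.0749) and in replicates 1 and 2 alone (0.79, adjusted p = 0.124). RPL23A, at the mouth of that tunnel, averaged 568 ± 68.4 CPM at 1:10000 and 501 ± 22.3 CPM at 1:40000 (0.18 ± 0.07, adjusted p = 0.0355), and this call too was lost under 9 of the alternatives tried.

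RPL6, a protein on the surface of the large subunit, was the only member outside the paralogs called lower. It had 812, 658, 657, 625 and 636 CPM at 1:10000, against 780, 778, 776, 756 and 793 CPM at 1:40000. Of the 1:10000 libraries, 4 lay below all 1:40000 libraries and replicate 1 lay above them (−0.20 ± 0.06, adjusted p = 0.0107, edgeR). Counts of RPL6 were 71.0 to 81.9% of those of RPL5 at 1:10000, against 92.2 to 101% at 1:40000, without overlap. RPL6 has 32 named pseudogenes, and with their counts added its log2 fold change was −0.19 (adjusted p = 0.0146).

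Several abundant large subunit members showed values near 0. RPL13A, also known as part of an interferon-responsive complex that silences translation, had 1900, 1690, 1560, 1530 and 1610 CPM at 1:10000, against 1680, 1630, 1490, 1540 and 1590 CPM at 1:40000. The groups overlap (0.06 ± 0.06, adjusted p = 0.393, edgeR). RPL3, a core protein near the peptidyl transferase centre, and RPL15 had log2 fold changes of 0.07 and 0.05, and RPL7A had 0.01, none of them called. Relative to the summed counts of the 76 members of at least 10 CPM, 66 shares overlapped between the dilutions and 59 had a ratio between 0.9 and 1.1. The shares of RPL22L1 and RPS13 were higher in all 1:10000 libraries than in all 1:40000 libraries, by factors of 2.38 and 1.13. Those of RPL3, RPL6, RPL7A, RPL7L1, RPL13A, RPL15, RPL22 and RPS15 were lower in all of them, with ratios of 0.721 (RPL7L1) to 0.878 (RPS15).

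**Figure D3:**
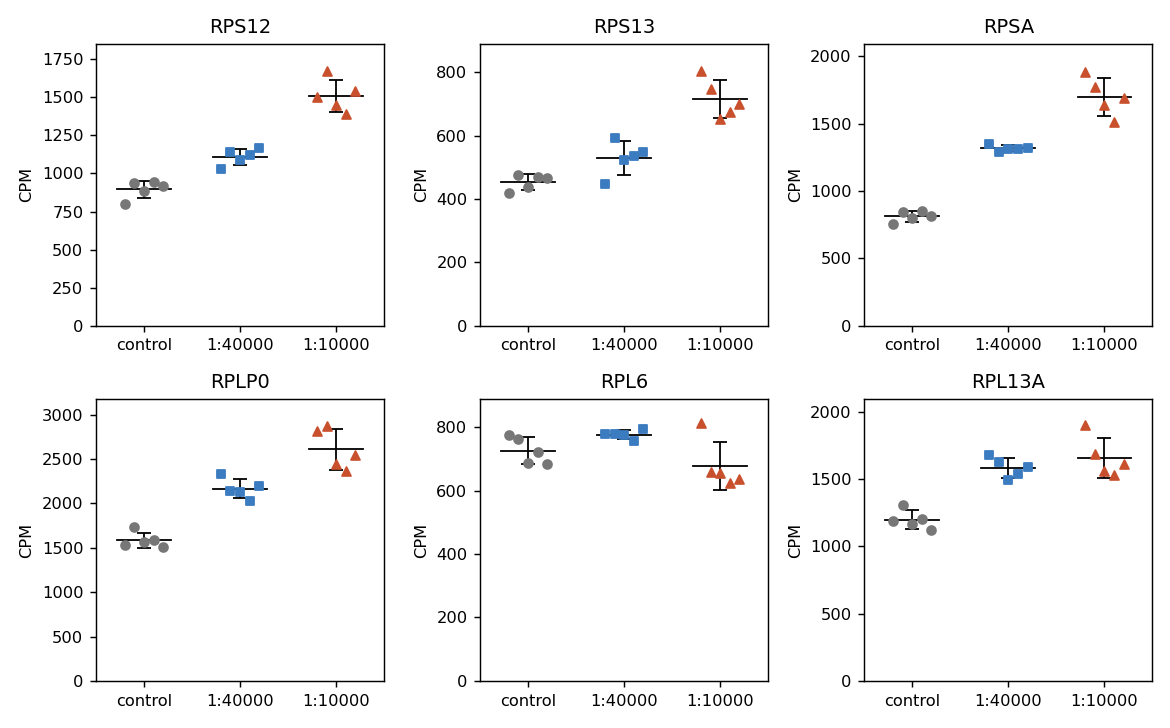
TMM-scaled CPM of 6 members in each library, with mean and SD of 5 libraries a group. RPS12, RPS13, RPSA and RPLP0 lie higher in every 1:10000 library than in every 1:40000 library; RPL6 lies lower in 4 of the 5, and RPL13A overlaps between the dilutions.

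The paralogs differed from one another. Count ratios to the genes they resemble separated between the dilutions for RPL22L1 and RPL7L1, and overlapped for RPL26L1 and RPS27L. RPL22L1 (ENSG00000163584, chromosome 3 from 170864875 to 170870483, minus strand, in GENCODE 29 on GRCh38), the paralog of the RNA-binding protein RPL22, had the highest log2 fold change of all members. It had 136, 120, 79.3, 77.0 and 76.6 CPM at 1:10000, against 37.1, 44.3, 29.8, 31.0 and 26.8 CPM at 1:40000. The lowest 1:10000 library exceeded the highest 1:40000 library, and replicates 1 and 2 were the highest of both groups (1.57 ± 0.17, adjusted p = 1.77e-06, edgeR). The value was 1.69 in replicates 1 and 2 alone and 1.42 in replicates 3 to 5 alone. RPL22 itself averaged 112 ± 15.4 CPM at 1:10000 and 111 ± 10.9 CPM at 1:40000, a log2 fold change of 0.02 ± 0.08 (adjusted p = 0.819; n = 5 each). Counts of RPL22L1 were 105, 94.4, 76.8, 79.9 and 74.3% of those of RPL22 at 1:10000, against 34.8, 33.9, 28.4, 29.2 and 24.8% at 1:40000.

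RPL26L1 averaged 24.1 ± 1.60 CPM at 1:10000 and 17.4 ± 2.72 CPM at 1:40000 (0.48 ± 0.11, adjusted p = 6.98e-04, edgeR), and RPL26, its close relative, had a log2 fold change of 0.39 ± 0.08 (adjusted p = 3.02e-04). The ratio of the pair overlapped between the dilutions, at 18.2 to 23.5% for 1:10000 and 15.6 to 21.8% for 1:40000. RPL7L1, whose yeast relative Rlp7 is known to act in assembly of the large subunit, had 146, 129, 131, 140 and 144 CPM at 1:10000, against 142, 143, 165, 177 and 171 CPM at 1:40000. It was lower in the mean but with overlap (−0.22 ± 0.07, adjusted p = 0.00606), and the low 1:40000 values were those of replicates 1 and 2. This call was lost with a length offset (−0.14, adjusted p = 0.0765, edgeR). RPL7 had a log2 fold change of 0.33 ± 0.07 (adjusted p = 2.00e-04), and counts of RPL7L1 were 13.1 to 17.6% of those of RPL7 at 1:10000, against 19.3 to 25% at 1:40000, without overlap. RPS27L, known in other cells as a p53 target, averaged 20.9 ± 3.53 CPM at 1:10000 and 20.4 ± 2.84 CPM at 1:40000 (0.06 ± 0.12, adjusted p = 0.719). RPL36AL (0.10 ± 0.07, adjusted p = 0.241) and RPL39L (−0.03 ± 0.28, adjusted p = 0.943) were not called.

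**Figure D4:**
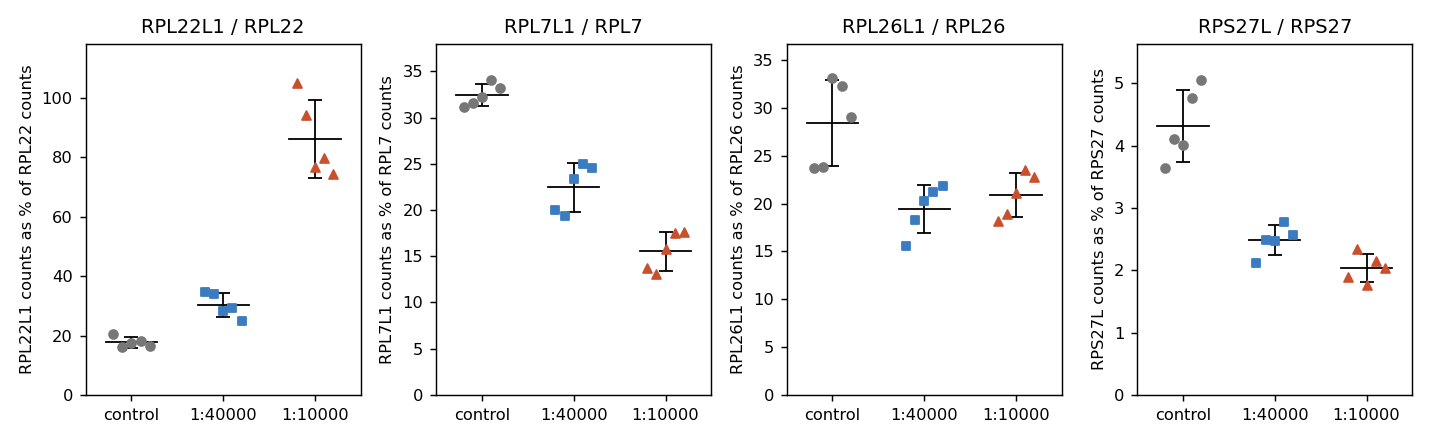
Counts of 4 paralogs as a percentage of the counts of the gene each resembles, for 5 libraries a group with mean and SD. RPL22L1 reaches 74.3 to 105% of RPL22 at 1:10000; RPL7L1 has 13.1 to 17.6% of the counts of RPL7 at 1:10000, below both other groups, and the other pairs overlap between the dilutions.

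Set against control, both dilutions had higher levels of most members, with the limit that control files came from another aligner. At 1:10000, 68 of 81 members were called higher than in control (background 34.8%) and 5 lower (background 36.2%), with a median log2 fold change of 0.55 against −0.02 over all genes. At 1:40000, 56 were higher than in control (background 26.1%) and 7 lower (background 26.0%), with a median of 0.28 against 0.00 over all genes. In 64 members every 1:10000 library lay above every control library, as in 28.8% of all genes, and in 47 members every 1:40000 library did, as in 18.1%. These comparisons share the control libraries. In replicates 1 and 2 alone, 67 of 80 members were higher than control at 1:10000 (29.7% of all genes; median 0.67) and 41 at 1:40000 (22.2% of all genes; median 0.28). In replicates 3 to 5 alone, 66 of 81 were higher at 1:10000 (35.0% of all genes; median 0.48) and 64 at 1:40000 (26.1% of all genes; median 0.29). Mean levels ascended in the order control, 1:40000, 1:10000 for 67 of 81 members (82.7%) and for 27.7% of all genes, and descended for 3 members (3.70%) and 28.5% of all genes.

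RPSA averaged 812 ± 39.6 CPM in control, 1314 ± 23.2 CPM at 1:40000 and 1696 ± 139 CPM at 1:10000 (SD, n = 5 each), with log2 fold changes to control of 0.69 ± 0.06 at 1:40000 (adjusted p = 2.62e-10, edgeR) and 1.06 ± 0.06 at 1:10000 (adjusted p = 3.13e-14). RPL22L1 had 18.4, 14.2, 13.3, 14.9 and 13.3 CPM in control, below every rinse aid library, and log2 fold changes to control of 1.16 ± 0.20 at 1:40000 (adjusted p = 1.58e-04) and 2.73 ± 0.19 at 1:10000 (adjusted p = 4.08e-09). RPL13A, not called between the dilutions, was above control at both, by 0.41 ± 0.06 at 1:40000 (adjusted p = 6.24e-06) and 0.47 ± 0.06 at 1:10000 (adjusted p = 2.59e-07). RPL23A averaged 244 ± 21.9 CPM in control, with log2 fold changes of 1.03 ± 0.07 at 1:40000 (adjusted p = 1.11e-11) and 1.21 ± 0.07 at 1:10000 (adjusted p = 2.16e-13). RPL7L1 was lower at both, by −0.31 ± 0.06 at 1:40000 (adjusted p = 2.73e-04) and −0.53 ± 0.07 at 1:10000 (adjusted p = 9.22e-08). RPS27L was lower as well, by −0.49 ± 0.12 at 1:40000 (adjusted p = 0.00137) and −0.43 ± 0.12 at 1:10000 (adjusted p = 0.00319), as was RPL36AL (−0.28 at 1:40000, adjusted p = 0.00233; −0.18 at 1:10000, adjusted p = 0.0338). Libraries of RPS27L overlapped with control at both dilutions. Its call at 1:10000 was lost with a length offset (−0.26, adjusted p = 0.0705, edgeR) and in replicates 1 and 2 alone (−0.12, adjusted p = 0.569). The RPL36AL call at 1:10000 was lost under 11 alternatives, 7 of which left out 1 library.

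For some members the files themselves limit the comparison with control. RPS18, a protein of the small subunit head, had 945 to 1100 CPM in control but 11 counts over all 1:40000 libraries and 1 count over all 1:10000 libraries. RPS9, which helps to keep decoding accurate, had 261 to 291 CPM in control, 0.382 to 0.922 CPM at 1:40000 and 0.252 to 1.09 CPM at 1:10000. Both genes have transcripts on sequences outside the primary assembly (37 for RPS18 and 43 for RPS9 in GENCODE 29), and the part of this in their counts was not tested. RPL39 averaged 19.7 ± 5.20 CPM in control, 346 ± 55.1 CPM at 1:40000 and 484 ± 85.0 CPM at 1:10000. Named pseudogenes existed for 78 members, among them RPL23A (91 pseudogenes) and RPSA (74). All named pseudogenes together held 0.920% of the pooled member and pseudogene counts in control, 2.82% at 1:40000 and 3.10% at 1:10000. Adding pseudogene counts to their parents gave 72 members higher and 5 lower at 1:10000 against control. RPS10 (309 counts in all) and RPL17 (2038 counts) were low in every group, and each overlaps a readthrough gene on the same strand. Members with too few counts to be tested included RPL3L, RPL10L and RPL36A.

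The other genes of the ribosome pathway were read from lists of known factors, in the comparison of 1:10000 with 1:40000, where 28.3% of all genes were higher and 29.1% lower. Of the ribosomal proteins outside the symbol rule, the scaffold RACK1 was higher by 0.21 ± 0.07 (log2; adjusted p = 0.00902, edgeR) and FAU by 0.15 ± 0.06 (adjusted p = 0.0282). Of 7 tested genes in the elongation factor list, which also holds TPT1, not itself an elongation factor, 3 were higher and none lower (median 0.09). These were TPT1 (0.38 ± 0.07, adjusted p = 2.89e-05), EEF1B2 (0.29 ± 0.06, adjusted p = 3.57e-04) and EEF1A1 (0.30 ± 0.08, adjusted p = 0.00172), which are themselves known TOP transcripts. Of 15 other genes known for TOP transcripts, 9 were higher and none lower (median 0.20), including the initiation factors EIF3H (0.35 ± 0.05, adjusted p = 2.90e-06) and EIF4A2 (1.19 ± 0.19, adjusted p = 1.35e-04). VIM, in the same list, was also called, at 3.71 ± 0.756 CPM for 1:10000 and 1.28 ± 0.441 CPM for 1:40000.

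Genes for ribosome assembly were also mostly higher at 1:10000 than at 1:40000. Of 49 tested nucleolar factors, 31 were higher and 2 lower (median log2 fold change 0.36). GNL2, a GTPase of large subunit maturation, had 76.5, 67.9, 61.0, 64.7 and 63.8 CPM at 1:10000, against 30.7, 29, 30.3, 30.2 and 30.9 CPM at 1:40000. Its groups were far apart (1.14 ± 0.08, adjusted p = 6.82e-12, edgeR). TAF1D, a subunit of the RNA polymerase I factor SL1 whose gene also hosts snoRNAs, averaged 421 ± 66.0 CPM at 1:10000 and 167 ± 15.2 CPM at 1:40000 (1.35 ± 0.08, adjusted p = 7.85e-12). NOP58, a core protein of box C/D snoRNPs, averaged 182 ± 16.3 CPM at 1:10000 and 94.2 ± 10.9 CPM at 1:40000 (0.95 ± 0.07, adjusted p = 9.56e-11). The 2 lower genes were POLR1A (−0.63), the largest subunit of RNA polymerase I, and TCOF1 (−0.52), which supports its transcription, both named after their values were seen. Of 20 genes for late assembly and export, 12 were higher and 2 lower (median 0.42). SBDS, which releases EIF6 from the large subunit, had 249, 224, 197, 216 and 210 CPM at 1:10000, against 122, 132, 136, 134 and 131 CPM at 1:40000 (0.75 ± 0.06, adjusted p = 2.46e-10). RIOK1, a kinase of small subunit maturation, and ZNF622, a factor of the large subunit, were higher by 0.99 ± 0.09 (adjusted p = 1.58e-09) and 0.78 ± 0.07 (adjusted p = 2.90e-09).

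Against control, both lists had more genes lower than higher at 1:40000, where 26.1% of all genes were higher and 26.0% lower; at 1:10000 these shares were 34.8% and 36.2%. Nucleolar factors had 5 of 49 higher and 21 lower at 1:40000 (median −0.17), and 20 higher and 9 lower at 1:10000 (median 0.12). For late assembly, 2 of 20 were higher and 11 lower at 1:40000 (median −0.20), while at 1:10000 the numbers were 11 and 7 (median 0.22). GNL2, for example, averaged 45.0 ± 3.57 CPM in control, 30.2 ± 0.734 CPM at 1:40000 and 66.8 ± 5.98 CPM at 1:10000 (SD, n = 5 each).

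Host genes of snoRNAs, the guides of ribosomal RNA modification, had 8 of 12 higher and none lower at 1:10000 against 1:40000 (median 0.45). SNHG15 averaged 44.9 ± 2.46 CPM at 1:10000 and 20.4 ± 0.963 CPM at 1:40000 (1.14 ± 0.08, adjusted p = 1.34e-11, edgeR). EPB41L4A-AS1 (0.66 ± 0.08, adjusted p = 1.24e-07) and SNHG12 (1.59 ± 0.19, adjusted p = 1.61e-07) were higher as well. Of 22 regulators of TOP translation and ribosome surveillance, 10 were higher and 5 lower. EIF4EBP2, a repressor of cap-dependent initiation that mTOR inhibits, had 474, 476, 485, 510 and 520 CPM at 1:10000, against 952, 1020, 1010, 1020 and 989 CPM at 1:40000 (−1.02 ± 0.05, adjusted p = 1.97e-13). LARP1 (−0.39 ± 0.06, adjusted p = 2.43e-06) and RPTOR, the scaffold of mTOR complex 1 (−0.56 ± 0.09, adjusted p = 4.43e-06), were lower as well, MTOR had a log2 fold change of 0.02 (adjusted p = 0.846), and DDIT4, an inhibitor of that complex, was higher (0.33 ± 0.12, adjusted p = 0.0203), all named after their values were seen. DEPTOR, an inhibitor of mTOR, averaged 4.13 ± 1.00 CPM at 1:10000 and 17.3 ± 4.44 CPM at 1:40000 (−1.98 ± 0.18, adjusted p = 2.35e-09). PELO, which rescues stalled ribosomes, was higher by 0.75 ± 0.08 (adjusted p = 1.02e-08). MYC, a transcription factor known to activate ribosome genes and named after its values were seen, had 211, 206, 159, 167 and 171 CPM at 1:10000, against 95.4, 71.4, 79.5, 96.0 and 99.1 CPM at 1:40000 (1.03 ± 0.13, adjusted p = 5.55e-06).

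Ribosomal proteins of the mitochondrion, which are encoded in the nucleus, had 27 of 75 higher and 7 lower at 1:10000 against 1:40000 (median 0.09). MRPS30 (0.57 ± 0.07, adjusted p = 2.52e-07, edgeR) and MRPL32 (0.69 ± 0.09, adjusted p = 3.54e-07) were higher and MRPL28 (−0.52 ± 0.07, adjusted p = 5.66e-07) was lower. Against control, 8 were higher and 35 lower at 1:40000 (median −0.19), where 26.1% and 26.0% of all genes were, and 17 were higher and 31 lower at 1:10000 (median −0.14), where 34.8% and 36.2% of all genes were. Of the lower genes, 4 were at or near 0 in every rinse aid file and averaged 23.8 to 72.3 CPM in control. RPS9 and RPS18 had the same pattern, as did 1 of the lower nucleolar factors, with 16.4 CPM in control.

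**Figure D5:**
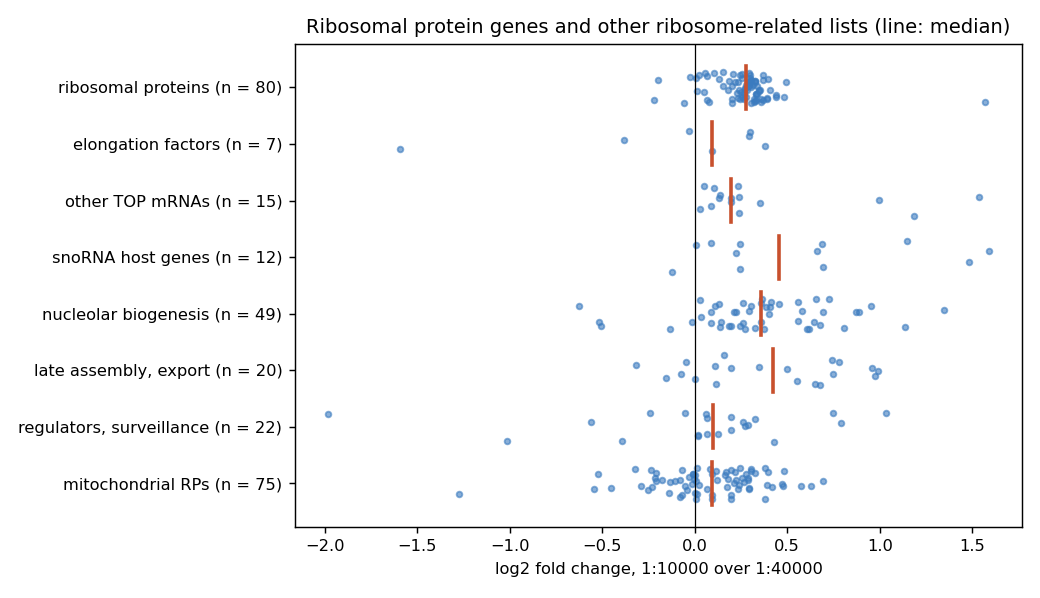
Log2 fold change at 1:10000 over 1:40000 for each tested gene of 8 lists (points), with the list median (line); RPS18 is left out of the first list. Ribosomal proteins cluster around 0.28, nucleolar and late assembly genes spread wider around 0.36 and 0.42, and mitochondrial ribosomal proteins lie around 0.09.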

How the data were processed

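The authors deposited a file of unnormalised counts per Ensembl gene for each library. Among the tools in the submitters' processing notes are STAR 2.7.9a, cutadapt, DESeq2 1.32.0 and featureCounts, with the build GRCh38; per the file headers, control files came from RNA STAR and rinse aid files from HISAT2. Annotation release and strand setting are not given in the sources used here, so 35 members with a same-strand exon overlap and 78 with named pseudogenes have uncertain counts. Files were joined by Ensembl identifier, with names and positions from GENCODE 29.

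Counts of all 15 libraries were fitted with edgeR 4.0.16 in R 4.3.3 (filterByExpr by group, TMM scaling, 3 group means, robust quasi-likelihood test), and 13158 genes were tested. Benjamini-Hochberg adjustment ran over all tested genes in each of 3 comparisons, with calls at an adjusted p under 0.05. SE was approximated as the size of the log2 fold change over the root of F, and CPM are given as mean ± SD. The scripts were tested on simulated data. Named members were the 5 highest and 5 lowest log2 fold changes between the dilutions, the 3 most and 2 least abundant, paralogs, stalk proteins, RPSA, RPS3, RPS6, RPL5, RPL11, RPL13A and RPS27A, members near absent in the rinse aid files (at least 32-fold lower, from 2 CPM), and those with the 2 smallest adjusted p per direction against control; other lists gave up to 3. RPL22, RPL26, RPL7, RPL3, RPL15, RPL7A, RPL17 and RPS15 were named after their values were seen. Members and lists were chosen with earlier results of these data known. The pyrimidine run was searched on both strands of RefSeq promoters (250 bases before to 50 after the start). No 2 libraries agreed within sampling noise, and no columns of other samples were present. Some genes of these lists are not reported here.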

Additional observations from a re-analysis of the deposited data

Results flagged for a closer look

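In 89 sets of 5 values, 8 held a highest or lowest library whose gap to its nearest neighbour exceeded 0.71 of the set's range, Dixon's critical value, which chance exceeds in about 1 of 20 sets. In 1:10000, RPL6 had 812 CPM in replicate 1 and 625 to 658 CPM in the others. In 1:40000, replicate 2 had 844 CPM of RPL5 against 782 to 796 CPM in the other libraries, and 956 CPM of RPS6 against 830 to 865 CPM. Replicate 1 of 1:40000, the deepest library, had counts of short members at 36.3% of those of long members, against 42.7 to 44.0% in the others. In control, replicate 2 had 28.9 CPM of RPL39 (others 16.4 to 18.2 CPM), 291 CPM of RPS9 (others 261 to 270 CPM) and 5.77% of counts in members (others 5.13 to 5.25%). Replicate 5 of control had 0.388 CPM of RPS10, against 1.20 to 1.37 CPM in the other control libraries.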

How the results depend on the processing

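Between 1:10000 and 1:40000, members were called higher in 39 of 81 cases (18.7% of all genes) with a median of 0.12 under total-count scaling alone. The other scalings, filters, tools and sample sets gave 50 to 66 higher. Upper-quartile scaling gave 60 higher (25.3% of all genes, median 0.23). No filter on low counts gave 50 (10.4% of all genes, median 0.21, median of all genes −0.21). The share of higher among all called genes was 49.3%, against 32.1% with total counts alone and 42.4% without the filter; for 1:10000 against control it was 49%, against 37.2% with total counts alone, and for 1:40000 against control 50.2%, against 60.6% without the filter. The median of 1:10000 against control was 0.38 with total counts alone (all genes −0.19) and 0.67 in replicates 1 and 2 alone. Members called lower numbered 1 (1:10000 against 1:40000), 9 (1:10000 against control) and 13 (1:40000 against control) with a length offset; 1, 2 and 3 without paralogs; and, in replicates 1 and 2 alone, 0 between the dilutions and 3 for 1:10000 against control. Without RPS9 and RPS18, 3 were lower at 1:10000 against control. Some of these settings held fewer genes or samples, and the cause of the changes was not tested.

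Leaving out each library in turn gave 61 to 66 higher and 2 lower (median 0.25 to 0.31) between the dilutions, 66 to 68 higher and 4 to 6 lower (median 0.52 to 0.57) for 1:10000 against control, and 51 to 58 higher and 6 to 7 lower (median 0.26 to 0.30) for 1:40000 against control. Fits within the 2 sets of replicates, and with a term for the set, were chosen after seeing the data. Among the named members, RPL5 had 0.00 between the dilutions with total counts alone (adjusted p = 0.987, edgeR). Those that turned direction were RPS10 for 1:10000 against control (1.02 with pseudogene counts added, adjusted p = 9.0e-04) and, with the length offset against control, RPL26L1 (−0.57 at 1:10000), RPS12 (−0.84 at 1:40000 and −0.51 at 1:10000) and RPL39L (−0.03 at 1:40000 and −0.15 at 1:10000).

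Same-numbered libraries of the dilutions deviated together with correlations of 0.281, 0.106, 0.231, 0.046 and 0.105, and 3 of 5 correlated best with their own number, so the numbers were not taken as pairs. With the replicate number as a block, 65 members were higher and 2 lower between the dilutions, 67 and 5 for 1:10000 against control, and 59 and 7 for 1:40000 against control. The depth of 2551252 counts in the shallowest library limits RPS10 and RPL39L, at about 1 to 3 CPM.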
